A study of Homo sapiens with 2 samples.

Results

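SLK, MDM4, LIMCH1, MBNL1, SEC31A and TNC are the 6 genes that the study named for alternative splicing regulated by RBM47. Their members in the data are the RBM47 HITS-CLIP clusters whose gene symbol is one of these names, 507 of the 233546 clusters in the table. RBM47 is an RNA-binding protein. In HITS-CLIP, cells are exposed to ultraviolet light, which joins a protein chemically to bound RNA. The protein is then purified and the RNA fragments that came with it are sequenced. A sequenced fragment, counted apart from amplification copies by a barcode, is a tag, and a cluster is a stretch of genome covered by tags.

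All tags came from 1 group with 2 replicates. The cells were MDA231-BrM2a, a non-clonal, brain metastatic population that descends from the breast cancer line MDA-MB-231. They expressed wild-type RBM47 with a Flag tag, switched on with doxycycline (1 ng/ml, 3 days of treatment) ahead of irradiation. The protein recovered was therefore the introduced one, at a level not measured in these files. The table has no column for non-irradiated or empty vector cells, so the background of the pull-down per cluster is not known and no conditions were compared. On a gel, the study detected no labelled RNA in the pull-down from either kind of control cell. Tags of a gene depend on both the amount of its RNA and the binding, and these cannot be told apart here.

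Alternative splicing joins different sets of exons from 1 pre-mRNA. A cassette exon is kept or skipped as a unit between 2 flanking exons, and proteins that bind the introns around it are known to shift that choice. Introns are removed in the nucleus. A tag in an intron marks contact with RNA that still held the intron or kept it, or with the removed intron itself. Binding in the 3'UTR of the finished mRNA is better known for effects on stability and translation. A protein can do both in 1 transcript, which is why the position of each cluster along these genes was examined.

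The deposited clusters held 999047 tags of replicate 1 and 3489697 tags of replicate 2. Every listed cluster had at least 5 tags in total and at least 1 tag in each replicate. The 6 genes held 1902 tags of replicate 1 and 6429 of replicate 2, or 8255 by the authors' total. Their median was 8 tags per cluster, the same as over all clusters. In 301 of the 507 clusters, replicate 1 had no more than 2 tags, so single small clusters rest mainly on replicate 2. Coordinates are those of the table, on hg18 by the submitters' processing notes, and no gene model of that build was used.

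MBNL1 had the most clusters and TNC the fewest. MBNL1 (Entrez gene 4154), a muscleblind protein that itself regulates splicing, had 272 clusters with 797 tags in replicate 1 and 2628 in replicate 2. Scaled per 1000 tags of each replicate this was 0.775 ± 0.0316 (SD, n = 2). LIMCH1 (Entrez gene 22998), which binds the actin and myosin cytoskeleton, had 86 clusters with 528 and 1820 tags, or 0.525 ± 0.00493 (SD, n = 2) per 1000 tags. SLK (Entrez gene 9748), a STE20-like kinase of the cytoskeleton, had 38 clusters with 218 and 802 tags, or 0.224 ± 0.00821 (SD, n = 2).

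Those 3 genes were followed by others with fewer tags. MDM4 (Entrez gene 4194), a RING domain protein and relative of MDM2, had 49 clusters with 189 and 574 tags, or 0.177 ± 0.0175 (SD, n = 2) per 1000 tags. SEC31A (Entrez gene 22872), a subunit of the outer COPII coat that carries cargo out of the endoplasmic reticulum, had 51 clusters with 129 and 477 tags, or 0.133 ± 0.00535 (SD, n = 2). TNC (Entrez gene 3371), the extracellular matrix protein tenascin C, had only 11 clusters with 41 and 128 tags, or 0.0389 ± 0.00308 (SD, n = 2). All 6 genes were above 100 tags by the authors' total. So were 3801 of the 7712 genes in the table.

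**Figure D1:**
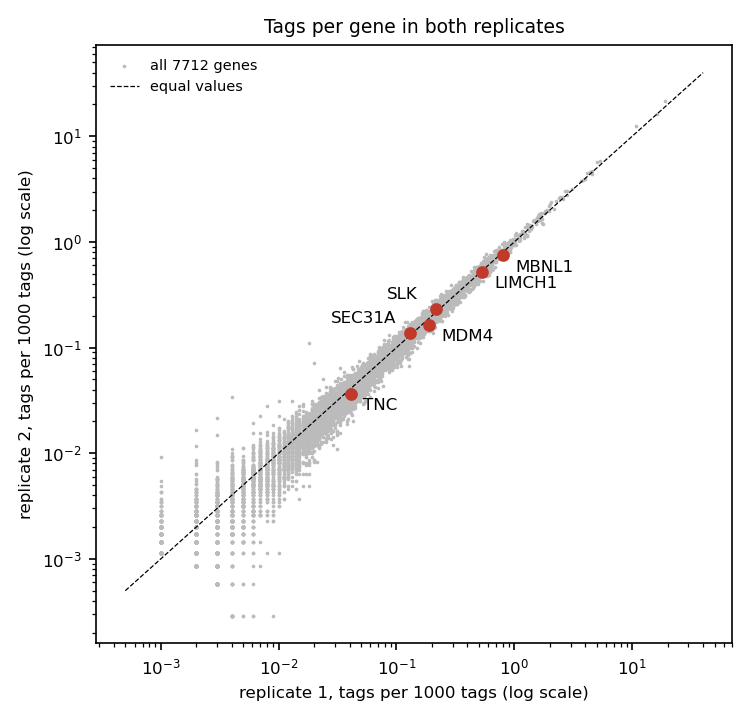
Tags per gene in replicate 1 (x axis) and replicate 2 (y axis), each per 1000 tags of that replicate on a log scale. Each grey point is 1 of 7712 genes, red points are the 6 genes, and the dashed line marks equal values. The 6 genes lie close to the line, from TNC at a mean of 0.0389 to MBNL1 at 0.775.

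Levels were compared between genes only per length, as tags per 1000 tags of a replicate and per kb of cluster. LIMCH1 was highest at 0.0571 ± 0.000536 (SD, n = 2), then SLK at 0.0506 ± 0.00185 and TNC at 0.0378 ± 0.00300. MDM4 followed at 0.0333 ± 0.00329, MBNL1 at 0.0303 ± 0.00124 and SEC31A at 0.0283 ± 0.00114. LIMCH1, SLK and TNC were separated by more than their SDs added together. From TNC down, neighbours in this order were not. The many tags of MBNL1 were thus spread over 25.6 kb of clusters, against 9.19 kb in LIMCH1 and 1.03 kb in TNC. The length is that of the listed clusters, not of the gene or transcript. The order therefore also depends on which location labels the clusters of a gene carry. In MBNL1, intron clusters made up 20.35 kb with 105 tags per kb by the authors' total, against 296 in its 3'UTR clusters.

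The only test the design allowed asked whether a gene's tags were split between the libraries like all tags, of which 22.3% were from replicate 1. None of the 6 genes differed from that share after adjustment over all genes (two-sided exact binomial test, Benjamini-Hochberg). Over the 7712 genes tested, 1.70% did. At an unadjusted p under 0.05 the count was also 0 of the 6 genes, against 10.1% of all genes. The beta-binomial test gave 0 as well, but it called only 6 of the 7712 genes. With the expected share taken from larger clusters, the exact binomial test called MBNL1 (adjusted p = 0.0180 or 0.00511). Its clusters had a median of 8 tags. Listing needed at least 1 tag of replicate 1, which raises that replicate's share in small clusters. The share of larger clusters was thus not matched to MBNL1, and the call cannot show that its split was unusual. The smallest unadjusted p was 0.0982 in MDM4, with 24.8% of its tags from replicate 1 (Wilson 95% interval 21.8 to 27.96). Among single clusters, 0 of 507 passed after adjustment, against 0.0111% of all clusters, and 16 of 507 had an unadjusted p under 0.05 in the exact test, against 3.04% of all clusters. Clusters of a few tags could hardly pass over so many tests. The smallest unadjusted p of the exact binomial test, 0.000689 for a split of 6 and 1 tags in MBNL1, became 0.924 after adjustment. The 0 therefore says little about single small clusters. The test compares 2 libraries and not conditions.

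**Figure D2:**
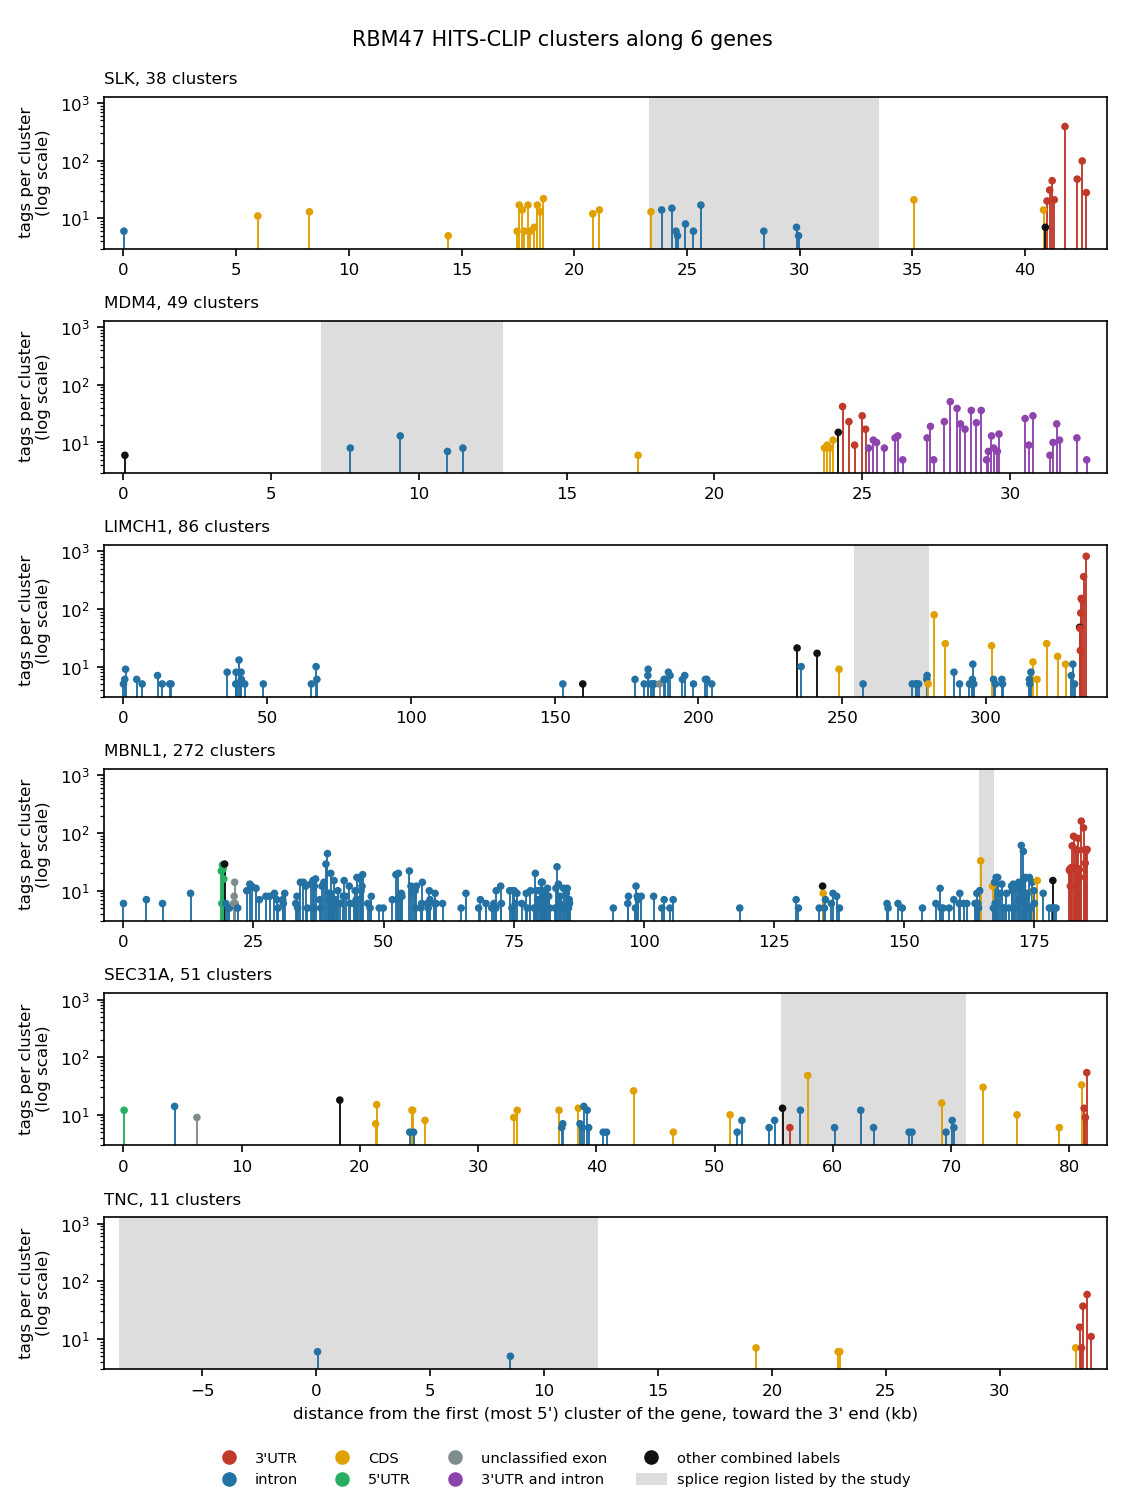
Clusters along the 6 genes. The x axis is the distance in kb from the most 5' cluster of each gene, the y axis is tags per cluster by the authors' total on a log scale, colours are location labels, and grey bands are the splice regions listed by the study. Tall 3'UTR clusters lie at or near the 3' end of the SLK, LIMCH1, MBNL1 and TNC maps. SEC31A also ends with its tallest cluster, labelled 3'UTR, at 54 tags. The 235 intron clusters of MBNL1 run along most of its 185 kb.

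Within the genes, the clusters gave different profiles. In SLK, LIMCH1 and TNC most tags were in 3'UTRs. In MBNL1 most were in introns over all clusters, though in clusters with at least 10 tags introns held 47.8% and in those with at least 30 tags 15.6%. In SEC31A coding sequence (CDS) held more than any other label. MDM4 stood apart, since most of its tags carried a combined label of 3'UTR and intron.

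In TNC, 3'UTR clusters held 78.0% of the tags of replicate 1 and 78.1% of replicate 2. Its 5 3'UTR clusters lay in the last 0.572 kb of the mapped span. The largest, at 116822672 to 116822983 on chromosome 9 (minus strand), had 13 and 46 tags in the replicates. The next, at 116822984 to 116823039, had 9 and 28 tags. Another at 116823099 to 116823206 had 4 and 13. TNC thus rested on few tags, and those 3 clusters held 67.1% of its total.

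LIMCH1 had 66.7% of its replicate 1 tags and 70.2% of its replicate 2 tags in 3'UTRs. They formed 7 clusters within 2.68 kb. The cluster at 41395786 to 41396818 of chromosome 4 (plus strand) had 188 and 631 tags, the most of any cluster in the 6 genes. A second at 41395056 to 41395748 had 76 and 287 tags, and another at 41394459 to 41394638 had 33 and 120. These 3 held 57.1% of all LIMCH1 tags.

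SLK showed the same arrangement with 62.8% of replicate 1 and 68.6% of replicate 2 tags in 3'UTRs. A single cluster at 105775888 to 105776769 of chromosome 10 (plus strand) had 82 and 311 tags, or 38.7% of the gene. Clusters at 105776981 to 105777203 and 105776771 to 105776969 followed with 99 and 48 tags in total. A further 22.5% of SLK tags were in CDS, a higher CDS share than in 82.2% of the genes with more than 100 tags. Those 18 CDS clusters were all small, from 5 to 22 tags.

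In MBNL1, clusters labelled intron alone held more tags than all other labels together. Introns held 67.8% of its replicate 1 tags and 62.1% of its replicate 2 tags, 64.9% ± 3.998 (SD, n = 2), and the 3'UTR held 27.2% ± 4.27. Of genes with more than 100 tags, 84.3% had a lower intron share. The intron tags were spread over 235 clusters with a median of 7 tags. By contrast, the 20 3'UTR clusters had a median of 39.5 tags. It took the 52 largest clusters of MBNL1 to reach 50% of its tags, against 2 clusters in LIMCH1 and TNC and 3 in SLK.

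The largest MBNL1 clusters were still in the 3'UTR. On chromosome 3 (plus strand), the cluster at 153664988 to 153665455 had 40 and 121 tags, that at 153665463 to 153665842 had 23 and 100, and that at 153663618 to 153663855 had 16 and 72. Intron clusters were not evenly placed. Measured from the first cluster, the 20 kb from 160 to 180 kb held 51 intron clusters with 545 tags, and those from 40 to 60 kb held 50 with 467 tags. The 20 kb from 100 to 120 kb held 6 with 37 tags. The tallest intron cluster, at 153653533 to 153653874, had 16 and 47 tags and was chosen for mention after its value was seen.

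SEC31A differed from the others in its exons. CDS clusters held 43.4% of replicate 1 and 48.0% of replicate 2 tags, a higher CDS share than in most genes with more than 100 tags, whose upper quartile was 16.9%. Introns held 32.3% ± 3.62 (SD, n = 2), more than the 14.8% ± 3.16 in 3'UTRs. No cluster dominated. On chromosome 4 (minus strand), the 3'UTR cluster at 83958835 to 83958996 had 13 and 41 tags, the CDS cluster at 83982389 to 83982637 had 5 and 43, and the CDS cluster at 83959252 to 83959455 had 7 and 27. Inside the mapped span of SEC31A, 4 clusters with 43 tags on the same strand were assigned to THAP9-AS1, a noncoding gene, so the 2 genes overlap in this table and tags there are of uncertain origin.

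MDM4 had 33 clusters labelled both 3'UTR and intron, with 133 and 411 tags in the replicates, or 71.0% ± 0.871 (SD, n = 2). The table lists both labels for each of these clusters. They formed a stretch of 7.47 kb at the end of the mapped gene, just after the clusters labelled 3'UTR alone. The largest, at 202789080 to 202789358 of chromosome 1 (plus strand), had 13 and 38 tags. A 3'UTR cluster at 202785460 to 202785688 had 8 and 34 tags and a combined cluster at 202789370 to 202789526 had 10 and 29. Whether these tags came from mRNA ends or from introns cannot be read from the labels. Introns alone held 5.09% ± 1.04 (SD, n = 2) of MDM4 tags.

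**Figure D3:**
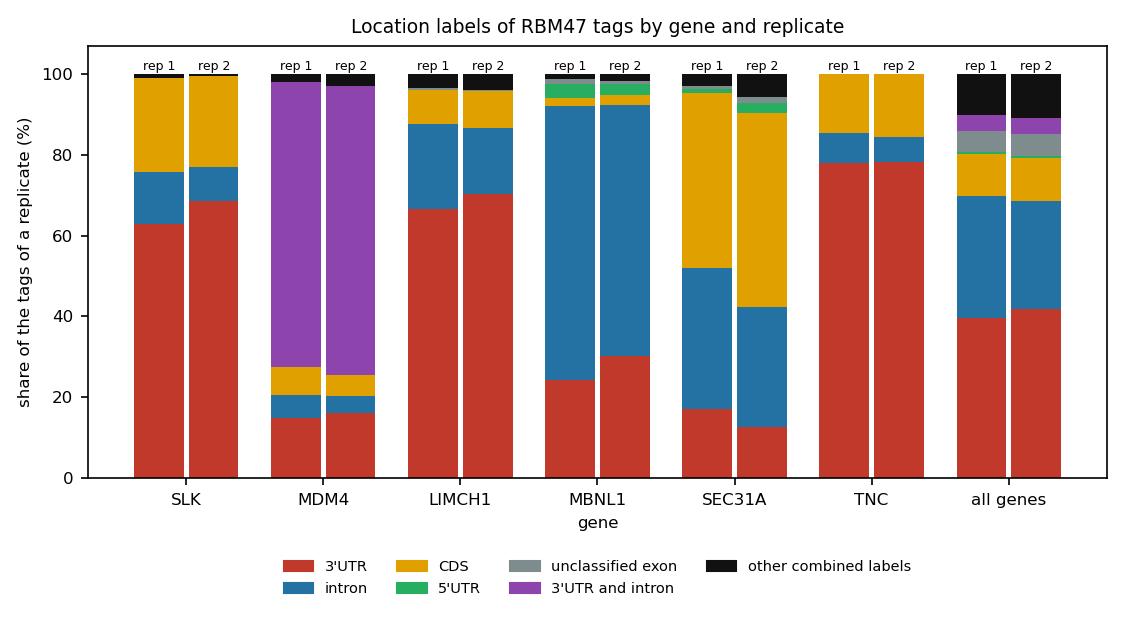
Share of tags (%, y axis) by location label for each gene and for all genes of the table, with 1 bar per replicate. Red 3'UTR segments are largest in SLK, LIMCH1 and TNC, the blue intron segment is largest in MBNL1, and purple marks the combined label of MDM4. In each of the 6 genes the intron segment is larger in replicate 1.

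Summed over the 6 genes, introns held 36.3% ± 3.48 (SD, n = 2) and 3'UTRs 42.4% ± 3.21 of the tags. Over all genes of the table these were 28.5% ± 2.37 and 40.7% ± 1.55. The intron value was carried by MBNL1, which had 41.0% of the tags of the 6 genes. Without it, introns held 16.1% ± 2.50 (SD, n = 2) and 3'UTRs 53.2% ± 2.14. The intron share was higher in replicate 1 in all 6 genes, as it was over all genes, where it was 30.2% in replicate 1 and 26.8% in replicate 2. The genes share the 2 libraries, so these are not 6 separate differences. Listing needed at least 1 tag in each replicate, which raises the share of replicate 1, the smaller library, in small clusters. Intron clusters were small, and how much of the difference came from the listing rule was not tested.

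By median tags, intron clusters were smaller than 3'UTR clusters in all 6 genes. Of the 341 intron clusters, 88 had at least 10 tags and 3 had at least 30, all 3 in MBNL1. All 7 clusters with at least 100 tags were in 3'UTRs. Per kb of cluster, by the authors' total, 3'UTRs held 626 tags and introns 81.8 in LIMCH1, 380 and 95.9 in SLK, and 233 and 69.2 in TNC. In MBNL1 these were 296 and 105, and in SEC31A 192 and 97.0. MDM4 had 156 tags per kb in 3'UTR clusters and 150 in the combined clusters, against 79.8 in its intron clusters. The intron values varied less between the genes than the 3'UTR values. However, intron clusters had medians of only 5.5 tags in TNC to 8 in MDM4. These are near the minimum of 5 tags for listing, which sets a floor to their tags per kb, so the narrow range is no measure of even binding.

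To ask how much of the binding was near the splicing events, the regions that the study listed were used by position. Each runs from the start of the flanking exon upstream of a cassette exon to the end of the one downstream. SEC31A has 2 such regions, of which the longer contains the shorter, so there were 7 in all. The splicing events were found by RNA sequencing of MDA231-BrM2 cells and of a single-cell clone that expressed RBM47. The tags came from a non-clonal population instead. For SLK, MDM4, LIMCH1, MBNL1 and SEC31A the study also showed RT-PCR of the events, but it showed none for TNC. The study listed regions with at least 10 tags in these same libraries. The presence of tags in a region is therefore no finding, and what follows describes where in the gene and in the region they were. Of the 76 other listed genes in the table, 1 had no cluster in its region.

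Of clusters labelled intron alone, nearly all tags of SLK, MDM4 and TNC were inside the region, but in MDM4 this left out the larger number under the combined label. In SLK it held 10 of 11 intron clusters, with 26 of 28 intron tags of replicate 1 and 64 of 68 of replicate 2. By the authors' total this was 93.7% (Wilson 95% interval 86.9 to 97.1) of the intron tags, in a region of 10.1 kb that covered 23.6% of the mapped span. In MDM4 it held 4 of 4 intron clusters with 11 and 25 tags, in 6.12 kb or 18.7% of the span. With the 33 MDM4 clusters labelled both 3'UTR and intron, all outside the region, this became 36 of 567 tags, or 6.35% (Wilson 95% interval 4.62 to 8.66). In TNC it held 2 of 2 intron clusters with 3 and 8 tags, in a region of 21.0 kb. The part of that region inside the mapped span made up 36.3% of the span. The span begins at the first of these 2 clusters, 8.63 kb into the region, and what lies upstream was not counted. No other tags were in the TNC region, and these 11 are just above the 10 needed for listing. TNC was thus listed through these tags, and its share is only a description. Tags labelled intron alone outside these regions came to 6 in SLK and 0 in MDM4 and TNC. The table lists no cluster under 5 tags, so weaker binding elsewhere is not counted.

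SEC31A and LIMCH1 had a minority of intron tags in the region. In SEC31A the longer region of 15.5 kb, 19.02% of the span, held 9 of 25 intron clusters with 16 of 45 and 49 of 142 intron tags, or 35.0% ± 0.741 (SD, n = 2). The shorter held 8 of them, or 30.05% ± 4.65. In LIMCH1 a region of 25.4 kb, 7.59% of the span, held 7 of 64 intron clusters with 13 of 110 and 26 of 300 intron tags, or 10.2% ± 2.23 (SD, n = 2). Per kb of genome, LIMCH1 had 1.49 intron tags inside its region and 1.18 in the rest of the span, while SLK had 8.80 and 0.184. Regions were listed for their tags, and the rest of the span includes the 3'UTR and other exon sequence. These densities are therefore only a description.

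In MBNL1 no intron cluster lay in the region at all. Both of its clusters there were CDS, at 153645807 to 153645990 with 4 and 29 tags and at 153648115 to 153648226 with 5 and 7. The region is the shortest of the 7, at 2.49 kb or 1.34% of the span. Intron clusters reached its edges, the nearest 0.002 kb upstream and 0.052 kb downstream, and 37 of them with 456 tags lay within 10 kb downstream. The tallest intron cluster of the gene was 5.28 kb downstream. Outside the region MBNL1 averaged 11.7 intron tags per kb of span.

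**Figure D4:**
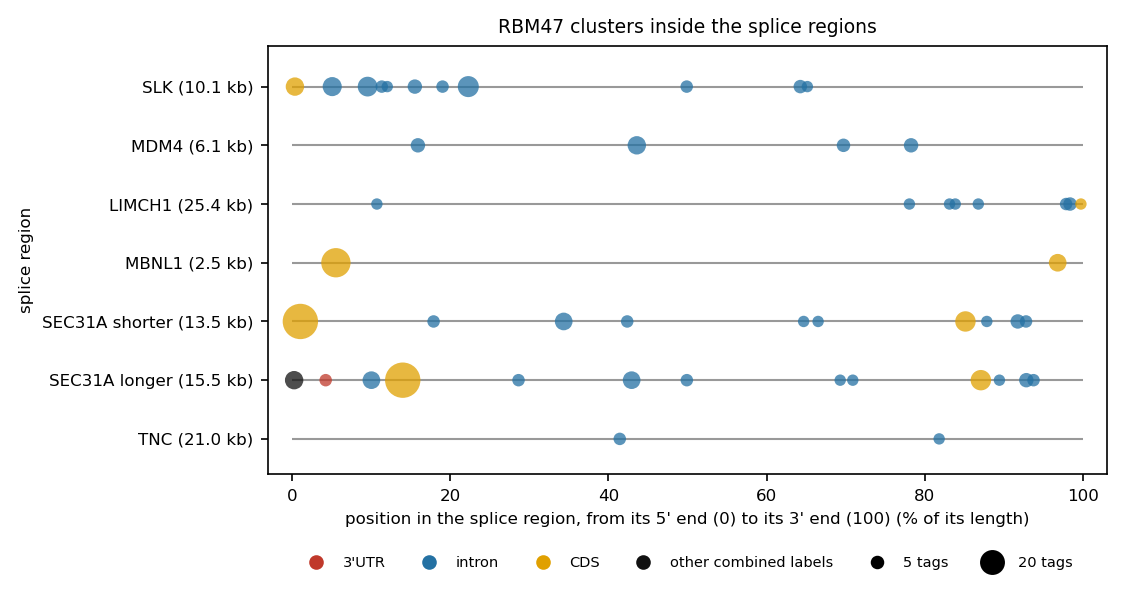
Clusters inside the splice regions of the 6 genes. The x axis is the position from the 5' to the 3' end of each region in % of its length, each row is 1 region with its length in kb, and the area of a point gives the tags of a cluster. SLK points crowd toward the 5' end, LIMCH1 points toward the 3' end, and the 2 MBNL1 points sit near the ends.

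Positions inside the regions differed between the genes. In SLK the first cluster was CDS, 0.016 kb from the region's start, with 1 and 12 tags. The next 7 clusters were intronic and lay between 0.430 and 2.35 kb. The largest of them, at 105760078 to 105760278, had 4 and 13 tags, and that at 105758847 to 105758936 had 5 and 10. The other 3 intron clusters ended at 6.61 kb, and no cluster lay past 65.3% of its length.

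MDM4 clusters were spread from 0.917 to 4.85 kb of the region, and the largest were at 202770548 to 202770666 with 5 and 8 tags and at 202768858 to 202768972 with 2 and 6. A cluster at 202772665 to 202772789 tied with the latter at 8 tags in total. In TNC the clusters were at 116856542 to 116856658, with 1 and 5 tags, and at 116848115 to 116848158, with 2 and 3. They lay 41.2% and 81.7% of the way along the region.

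LIMCH1 had 7 of its 8 clusters in the region past 19.8 kb. The largest were at 41340922 to 41341027 with 1 and 6 tags and at 41340795 to 41340902 with 1 and 5, between 24.8 and 25.1 kb of the region. A CDS cluster with 5 tags lay at 25.3 kb. The tallest CDS cluster of LIMCH1, with 21 and 58 tags, was at 41343257 to 41343600, 1.86 kb past the region, and was likewise chosen after its value was seen.

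SEC31A combined exonic and intronic clusters. CDS clusters held 64 of the 148 tags in the longer region, 48 of them in the cluster at 83982389 to 83982637 near the start of the shorter one, and 16 in that at 83971100 to 83971266. Intron clusters held 65 tags and none had more than 12. A 3'UTR cluster of 6 tags also lay in the longer region, 25.1 kb from the 3' end of the mapped gene, so part of the SEC31A 3'UTR label belongs to an internal position.

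As a share of all tags of the gene the regions were small. SEC31A had 22.9% ± 3.83 (SD, n = 2) of its tags in the longer region and SLK 10.9% ± 2.06. TNC had 6.78% ± 0.755, MDM4 5.09% ± 1.04, LIMCH1 2.15% ± 0.709 and MBNL1 1.25% ± 0.170. In the 76 other listed genes of the table the median was 18.4%, with quartiles of 5.98% and 48.6%. Of the intron tags of a gene, the median inside the region was 26.8% over the 68 other genes with any, with quartiles of 2.99% and 78.1%. These values count clusters labelled intron alone. TNC, with only 11 intron tags, and SLK were above the upper quartile, and MBNL1 was below the lower one. MDM4 was above the upper quartile by that label and at 6.35% with its combined clusters. Of the 68 genes, 10 were at 0% and 10 at 100%.

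**Figure D5:**
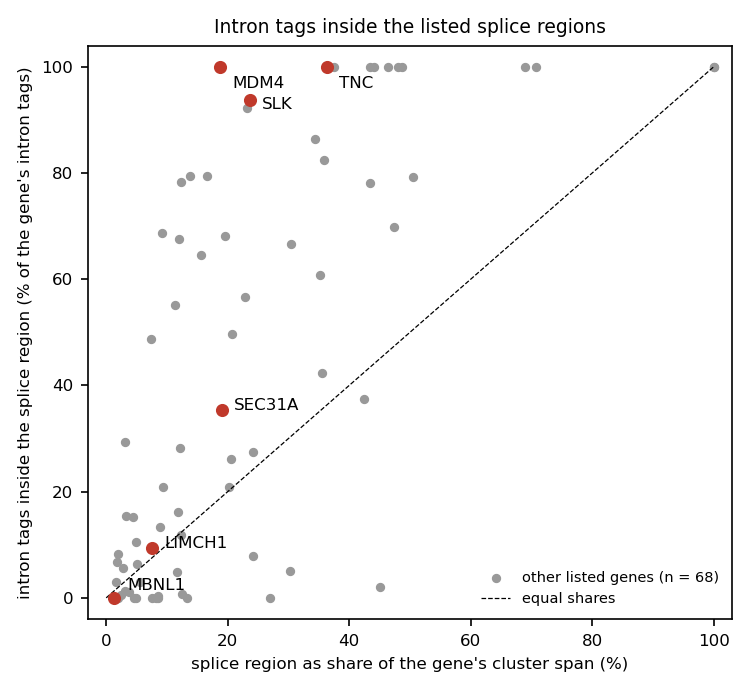
Share of a gene's intron tags inside its splice region (%, y axis) against the share of the gene's cluster span that the region covers (%, x axis), for the 6 genes (red) and 68 other listed genes (grey). The dashed line marks equal shares, and only the part of a region inside the span is counted on the x axis. TNC rests on 11 intron tags in 2 clusters. Clusters labelled intron alone are counted, among genes that the study listed for tags in these regions. By that count SLK, MDM4 and TNC lie far above the line and MBNL1 and LIMCH1 near it. The 11 TNC tags are those through which it was listed. With its clusters labelled both 3'UTR and intron, MDM4 would lie below the line, at 6.35% for a region of 18.7% of the span.

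Relatives of the 6 genes had different numbers of tags, which were not scaled by length or by RNA amount. Of the muscleblind family, MBNL2 had 683 and 2034 tags in 175 clusters, with 47.9% of tags in introns and 42.1% in 3'UTRs. MBNL3 had 111 and 374 tags, of which 73.1% carried the combined label of 3'UTR and intron. MDM2, a ubiquitin ligase, had 192 and 704 tags, and 71.0% of them carried that label, next to 70.8% in MDM4. STK10, the closest paralogue of SLK, had 78 tags with 84.6% in introns, and LMO7, a relative of LIMCH1, had 232 tags with 49.1% in 3'UTRs.

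Of 12 genes for the COPII coat and its partners, 11 had clusters and 8 had more than 100 tags. The adaptor SEC24A had 1012 tags, SEC24B 666, SEC24D 621 and SEC23A 554, against 602 in SEC31A. The CDS share was 47.2% in SEC31A. In the 8 COPII genes with more than 100 tags it ran from 2.94% in SAR1B to 53.3% in SEC24B, with 47.8% in SEC23B, 27.5% in SEC24D, 26.7% in SEC23A and 7.71% in SEC24A. No cluster was listed for SEC31B or for the other tenascins TNR, TNXB and TNN. Among genes with at least 500 tags, the profile over location labels in both replicates was most alike between MBNL1 and AFF1, with shares that differed by 9.46 percentage points in sum. For SLK it was HNRNPA2B1 at 7.09, for LIMCH1 CACUL1 at 6.09, for TNC ASAP2 at 5.32, for MDM4 SPCS3 at 13.6 and for SEC31A USP32 at 16.5.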

How the data were processed

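For each cluster the authors deposited raw tag counts, 1 column per replicate and 1 for their total. Primers carried an index for each replicate and a degenerate barcode, by which copies made in amplification were told from separate cDNA molecules. The authors grouped tags into clusters found in both replicates, and analysis was done in Galaxy. The software settings of these steps are not given in the sources used here. The submitters' processing notes name Novoalign and hg18, without versions or settings. The references at hand are of other builds, so no sequence or gene model was read by coordinate. Cluster columns were mapped to replicates by their names.

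Members were the rows with exactly these gene symbols, and all deposited clusters were used. Tags were summed by gene. A cluster with 1 location label was counted in that class. Shares per replicate are given as mean ± SD. Wilson intervals are at 95% and cover counting error only. A cluster was in a splice region when at least 1 nt overlapped. Replicate splits were tested with a two-sided exact binomial test against the share over all clusters, with Benjamini-Hochberg adjustment over all genes or clusters at 0.05 (Python 3.11.15, scipy 1.17.1). On simulated data the gene test over 7712 genes recovered 99.5% of genes with at least 300 tags changed 2-fold in odds, and called 8 unchanged genes. The simulated counts had binomial spread only, less than the spread in these data. TNC, with 167 tags, was below that minimum. Nothing in the labels says that the replicates were separate cultures, so the SD may be technical.

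The genes, lists and tests were chosen with earlier results of these data known. Named clusters are the 3 largest of each gene and the 2 largest of each region, with others said to be chosen later or given by position. Named genes are the 6, fixed lists of relatives (1 gene in them is not reported here), and the gene most alike to each by label shares. In 55 of the 507 clusters the 2 replicate columns exceeded the authors' total when added, by at most 3 tags.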

Additional observations from a re-analysis of the deposited data

How the results depend on the processing

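With at least 10 tags per cluster, 208 clusters remained of 507, introns held 20.2% of the tags, 3'UTRs 56.5%, the splice regions 3.43% and the top cluster of each gene 24.2%. With at least 30 tags these were 39 clusters, 4.03%, 84.6%, 2.13% and 40.4%. The values with all clusters were 34.8%, 43.9%, 4.66% and 18.6%. Counting every label that includes a region gave 41.2% for introns and 51.4% for 3'UTRs. With each replicate left out in turn, the number of clusters with 5 or more tags was 78 (without replicate 2) to 360. The other values used the tags of 1 replicate over all 507 clusters, whose listing had needed tags of both. By these, 5 to 6 genes exceeded 100 tags, TNC falling below without replicate 2. Ranges were 33.8% to 38.7% for introns, 40.2% to 44.7% for 3'UTRs, 4.62% to 4.73% for the regions and 18.3% to 18.5% for the top clusters. Without MBNL1, chosen after the data were seen, introns held 15.0%, 3'UTRs 54.3%, the regions 6.98% and the top clusters 28.2%. The mean over the 6 genes, also chosen later, gave 22.0% for introns, 8.20% for the regions and 21.6% for the top clusters. In single genes, the intron share with at least 10 tags ran from 0% in TNC to 47.8% in MBNL1, and with at least 30 tags it was 15.6% in MBNL1 and 0% in the other 5. A higher minimum removes small clusters by construction.

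The replicate split of MBNL1 passed the exact binomial test when the expected share was taken from clusters with at least 100 tags (20.8%) or from the median of clusters with at least 30 (20.5%), which gave 1 of 6 genes each, while 273 and 355 of all 7712 genes were called there against 131 with the share over all clusters. Its adjusted p ranged from 0.00511 to 0.0180 there, but the small clusters of MBNL1 were not matched to those expected shares. Of the 5 alternatives for genes the other 3 called 0, and all 5 for clusters called 0. No paired analysis was possible because the samples form only 1 group. Merging clusters less than 50 nt apart gave 368 clusters, and only this count was redone. Matching by Entrez ID left the intron share at 34.8% and the 3'UTR share at 43.9%. Requiring clusters wholly inside a region left the region share at 4.66%. The replicate split was not tested again under these 3 settings. The depth of replicate 1 limits single clusters, and 59.4% of the 507 had no more than 2 of its tags.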

Other observations

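Clusters with no gene assigned continued past the last cluster of 3 of the 6 genes. Downstream of MBNL1, 26 clusters on the same strand lay between 0.0300 and 9.11 kb past its last cluster, and carried a label for the 10 kb past a gene's end. They held 65 tags of replicate 1 and 241 of replicate 2, or 306 in total, next to 3386 in MBNL1 itself. Past SLK, 9 such clusters reached 1.63 kb and held 40 and 113 tags, or 14.8% of the tags assigned to SLK. SEC31A had 1 such cluster of 6 tags. None was listed past MDM4, LIMCH1 or TNC. Within the mapped spans of the 6 genes no cluster was listed on the opposite strand.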
